A study of Mus musculus with 9 samples.

Results

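The genes described here are the splicing factors and heterogeneous nuclear ribonucleoproteins (hnRNPs) of the mouse metaphase II (MII) oocyte. They were chosen by name from the protein-coding genes of the deposited tables: every symbol starting with Srsf, Snrp (Snrpn left out), Sf3a, Sf3b or Hnrnp. The rule found 51 genes among 30153 genes of any kind and 18483 protein-coding ones. There were 11 Srsf, 11 Snrp, 9 Sf3 and 20 Hnrnp genes. All 51 were in each of the 3 tables, and 50 had enough reads to be tested in each comparison. Srsf12 did not, since its highest count in any library was 5. The rule used names only, and no measured value.

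Poly-A RNA was sequenced from pools of ovulated, cumulus-free MII oocytes of 4-week-old females on a mixed background. Every group carried the same alleles, Sycp3CreERT2/+ and Rosa26nT-nG/+, so all donors had a tamoxifen-inducible Cre at the meiotic gene Sycp3 and a reporter that switches from red nuclear fluorescence to green once Cre has acted. The donors had received 5 IU PMSG and, 48 h later, 5 IU hCG, and eggs were taken 13 h after that and sorted by hand into GFP High, GFP Low and RFP (n = 3 libraries each). Pools held 15 to 16 oocytes (GFP High), 49 to 57 (GFP Low) and 87 to 100 (RFP), so group and pool size cannot be told apart. The labels do not say that replicates came from separate animals, so a p-value measures the spread between these pools, which may be technical.

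Splicing removes introns from pre-mRNA in the spliceosome, which is built from small nuclear ribonucleoproteins (snRNPs). Most snRNPs carry a ring of Sm proteins, and the U2 snRNP recognises the branch point with the SF3a and SF3b complexes. SR proteins bind exons and recruit this machinery, while hnRNPs coat nascent transcripts and can block or promote splice sites. The MII oocyte hardly transcribes. What RNA-seq sees there is stored maternal mRNA, much of it laid down in the growing oocyte, and the level of such an mRNA is not a measure of its protein or of splicing activity. Only RNA caught by its poly-A tail was sequenced, and tail length was not measured.

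Library totals ranged from 19381677 to 27746256 counts. All 15 oocyte markers examined were present at 1 CPM or more on average (CPM, reads scaled to a common library size), and their summed level was 11859 to 12938 CPM (GFP High), 11293 to 11986 (GFP Low) and 11464 to 11903 (RFP). The summed level of 18 cumulus and granulosa markers was 284 to 400.2 CPM, 314 to 318 and 298 to 382, with 8 of them at 1 CPM or more. Serpine2 was the highest of them at 176.5 CPM on average, and Areg had no more than 3 counts in any library. Of 10 blood and stromal markers 8 were matched, and they summed to 46.3 to 65.3 CPM over all libraries, mostly Pecam1 at 43.4 CPM. The part of the follicle cell markers in the values below was not tested. These are bulk pools, in which fewer cells with an mRNA and less of that mRNA per cell cannot be told apart.

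The 51 genes together took nearly the same share of the reads in each group: GFP High 0.831% ± 0.00719, GFP Low 0.840% ± 0.0134 and RFP 0.820% ± 0.0167 (SD, n = 3). The libraries of the groups overlapped, GFP High running from 0.823% to 0.837%, GFP Low from 0.831% to 0.856% and RFP from 0.808% to 0.839%. The hnRNPs took the most, with 0.429% ± 0.0133, 0.449% ± 0.0136 and 0.438% ± 0.0105 in the same order. The Snrp genes took 0.165% ± 0.0131, 0.151% ± 0.00642 and 0.146% ± 0.0177, also with overlapping libraries.

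Levels of different genes were compared in FPKM, which divides reads by gene length. The median member stood at 15.7 FPKM, averaged over the 9 libraries, and the median of the 12776 protein-coding genes tested at 3.45 FPKM. Above that median lay 42 members, and 13 (25.5%) were among the top 10% of coding genes, at 39.8 FPKM or more. The range was wide, with 5 members above 100 FPKM, 26 between 10 and 100, and 20 below 10. By family, the median level was 37.2 FPKM for SF3a and SF3b, 21.1 for the hnRNPs, 18.4 for the Snrp genes and 6.55 for the Srsf genes. On the length of the longest protein-coding transcript instead of the deposited gene length, 9 of the top 10 were the same. Only Snrpc changed its rank by more than 10 places. The deposited lengths of Snrpd1 (837 bases), Sf3b2 (3231) and Hnrnpul2 (5726) were shorter than all their exons. They were near that transcript (858, 3222 and 5118 bases), so both scales are close for these genes.

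**Figure D1:**
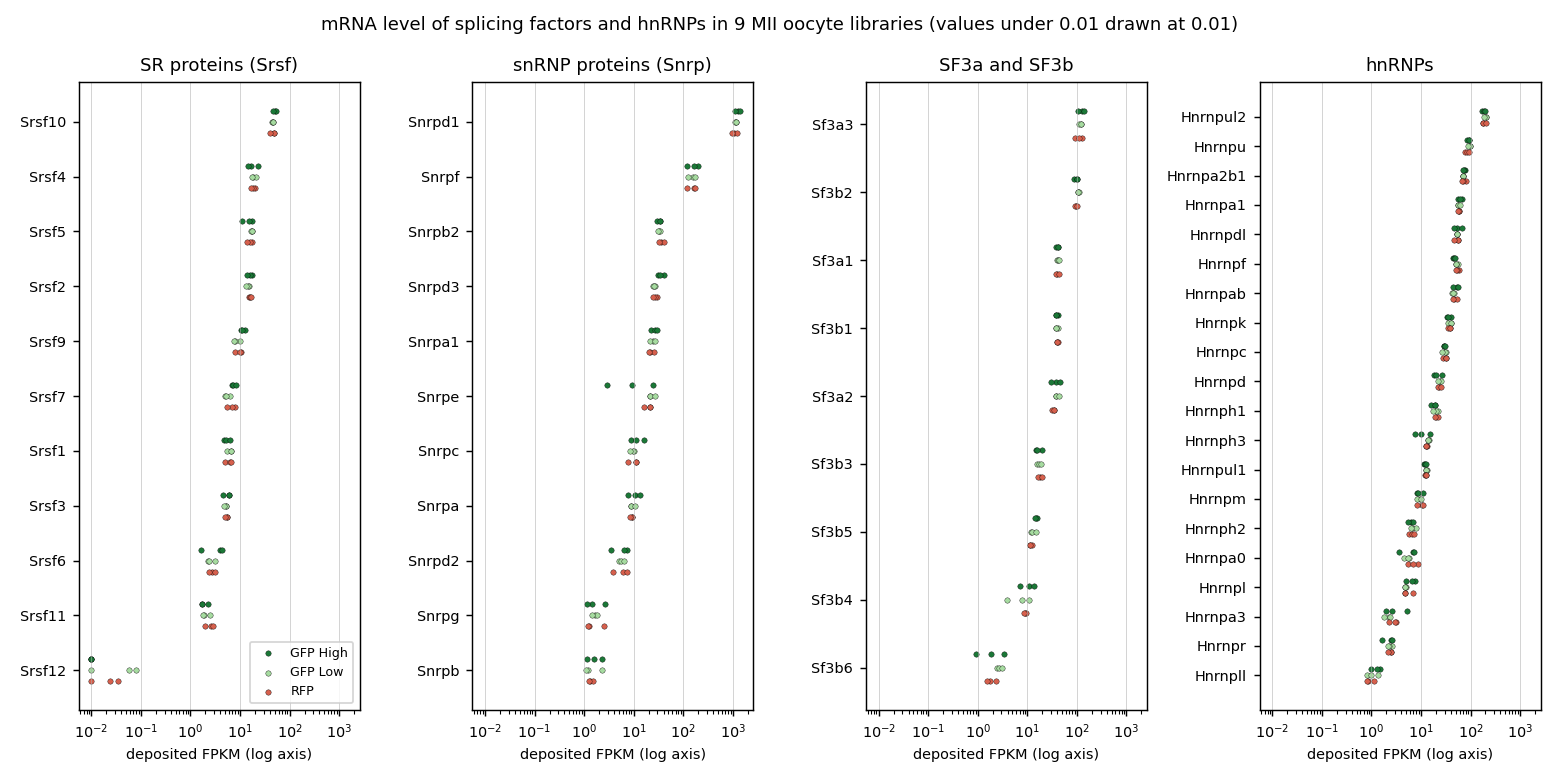
Deposited FPKM of the 51 genes (horizontal log axis), 1 point per library, in 4 panels by family and ordered by mean level. Within each panel genes span at least 10-fold, while the libraries of most genes lie close together. Snrpe, Sf3b6 and Hnrnpa3 spread widest in GFP High, and Srsf12 is at 0 in 5 libraries.

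Among the SR proteins, which mark exons for the spliceosome, Srsf10 stood highest. Srsf10, a splicing regulator controlled by its phosphorylation, was at 49.8 ± 3.89 FPKM (GFP High), 45.8 ± 1.76 (GFP Low) and 45.9 ± 4.98 (RFP). Srsf4 followed at 18.3 FPKM over all libraries, then Srsf5 at 15.7 and Srsf2 at 15.3. Srsf9 was at 9.77 FPKM, Srsf7 at 6.55, Srsf1, the founding member of the family, at 5.85, and Srsf3 at 5.28. Srsf6 (2.89 FPKM) and Srsf11 (2.13 FPKM) lay below the median coding gene. Srsf12 was hardly detected, with 0 counts in all 3 GFP High libraries, GFP Low at 5, 0 and 5 and RFP at 2, 0 and 3. A count of 0 allows up to 3 counts in a library, and the reads carry no molecular identifiers, so this limit covers counting error only.

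The 7 Sm proteins form 1 ring with a single copy of each, yet their mRNA levels ran from 1.53 to 1165 FPKM. Snrpd1 was at 1274 ± 158 FPKM (GFP High), 1155 ± 38.2 (GFP Low) and 1065 ± 133 (RFP), and made up 84.6% of the summed FPKM of the 7 genes. Snrpf stood at 155 FPKM, Snrpd3 at 29.2, Snrpe at 18.4 and Snrpd2 at 5.75. Snrpg (1.68 FPKM) and Snrpb (1.53 FPKM) were below the median coding gene. The length behind the deposited FPKM of Snrpd1 is 837 bases against 2052 for all its exons in GENCODE M21. Snrpd1 ranked highest on the deposited length and on its longest protein-coding transcript of 858 bases. Its level and share on 2052 bases would be lower and were not computed. The proteins that belong to single snRNPs lay in between: Snrpb2 (33.7 FPKM) and Snrpa1 (24.3 FPKM) of the U2 snRNP, and Snrpc (10.5 FPKM) and Snrpa (9.72 FPKM) of the U1 snRNP.

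SF3a and SF3b hold the U2 snRNP on the branch point. Sf3a3 was at 123 ± 16.4 FPKM (GFP High), 118 ± 4.50 (GFP Low) and 109 ± 15.8 (RFP). Sf3b2 reached 100.1 FPKM over all libraries, Sf3a1 40.4, Sf3b1, the large scaffold of SF3b, 39.7 and Sf3a2 37.2. Sf3b3 (17.4 FPKM), Sf3b5 (13.2 FPKM) and Sf3b4 (9.03 FPKM) were lower, and Sf3b6, whose protein lies at the branch point adenosine, was lowest at 2.23 FPKM. All 3 SF3a subunits were thus above the median of the family or at it, and the SF3b subunits ran from 2.23 to 100.1 FPKM. The length behind the deposited FPKM of Sf3b2 is 3231 bases against 6822 for all its exons in GENCODE M21.

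The hnRNPs with the highest deposited FPKM were Hnrnpul2 and Hnrnpu, related proteins, the latter also known as scaffold attachment factor A. Hnrnpul2 was at 183 ± 13.2 FPKM (GFP High), 199 ± 11.2 (GFP Low) and 188 ± 12.7 (RFP), and Hnrnpu at 89.5 ± 4.35, 94.8 ± 3.66 and 85.9 ± 8.02. Next came Hnrnpa2b1 (72.6 FPKM) and Hnrnpa1 (58.1 FPKM), which repress exons. Per kb of the longest protein-coding transcript Hnrnpa2b1 stood first instead, at 279 CPM against 215 for Hnrnpul2 and 138 for Hnrnpu. Lower in FPKM were Hnrnpdl (53.7 FPKM), Hnrnpf (51.1 FPKM), which binds runs of G, and Hnrnpab (47.6 FPKM). Hnrnpk, which binds C-rich RNA, was at 37.3 FPKM, Hnrnpc, which binds runs of U, at 29.9 and Hnrnpd, which binds AU-rich elements, at 22.9. Hnrnph1 (19.4 FPKM), Hnrnph3 (12.6 FPKM), Hnrnpul1 (12.5 FPKM), Hnrnpm (9.57 FPKM) and Hnrnph2 (6.56 FPKM) followed. Hnrnpa0 (6.07 FPKM) and Hnrnpl (5.54 FPKM), which binds CA repeats, were lower. Below the median coding gene were Hnrnpa3 (2.72 FPKM), Hnrnpr (2.32 FPKM) and Hnrnpll (1.08 FPKM), the relative of Hnrnpl known for the splicing of Ptprc.

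The level of a few of these genes depends on how reads were divided among near-identical loci. GENCODE M21 annotates processed pseudogenes, copies of a spliced mRNA inserted elsewhere in the genome, and the tables hold reads for 55 pseudogenes that match 17 members at 95% identity or more over at least 100 bases. These pseudogenes were looked for after the values had been seen. For 8 members they took at least 10% as many reads as the gene itself. The 3 genes with the most such reads are given here, each as 120 bases of its coding sequence (GENCODE M21 transcript) above the same stretch of its best-covered pseudogene on the mouse build GRCm38. For Hnrnpa1 the stretch is where the pseudogene starts. For Hnrnpa3 and Hnrnpk it is the first gap-free 120 bases with the most differences, so the pairs are not comparable. Capitals mark the bases that differ, so that a line without capitals is shared in full.
Hnrnpa1: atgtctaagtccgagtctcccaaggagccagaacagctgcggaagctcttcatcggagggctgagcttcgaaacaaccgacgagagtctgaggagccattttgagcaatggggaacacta
Gm10052: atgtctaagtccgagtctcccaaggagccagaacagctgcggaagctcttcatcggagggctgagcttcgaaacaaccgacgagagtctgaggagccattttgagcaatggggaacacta
Hnrnpa3: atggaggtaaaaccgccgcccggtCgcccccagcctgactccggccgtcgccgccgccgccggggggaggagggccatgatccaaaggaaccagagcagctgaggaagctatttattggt
Gm11847: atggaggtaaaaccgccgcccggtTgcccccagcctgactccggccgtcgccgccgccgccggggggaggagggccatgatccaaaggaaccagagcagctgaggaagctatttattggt
Hnrnpk: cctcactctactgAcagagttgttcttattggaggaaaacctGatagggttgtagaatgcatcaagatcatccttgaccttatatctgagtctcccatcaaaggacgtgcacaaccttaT
Gm7964: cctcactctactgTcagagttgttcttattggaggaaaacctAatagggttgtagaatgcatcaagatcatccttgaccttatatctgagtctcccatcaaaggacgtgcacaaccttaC

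The stretch of Gm10052 lies at chr9:123690073-123690192 on the minus strand, that of Gm11847 at chr4:12232833-12232952 and that of Gm7964 at chr7:83756459-83756578, both on the plus strand. Counted from 1 at the 5′ end of each stretch, with the base of the gene first, Gm11847 differs by C25T and Gm7964 by A14T, G43A and T120C. Over its whole annotated length of 960 bases Gm10052 has 0 mismatches to an Hnrnpa1 transcript. Gm11847 has 1 mismatch in 1119 aligned bases to Hnrnpa3 and Gm7964 has 10 in 1377 to Hnrnpk. A read inside an identical stretch fits both loci equally well, and the counts hold no record of how such reads were treated.

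For Hnrnpa3 the pseudogenes held far more reads than the gene. The gene itself was at 14.8 CPM over the 9 libraries, and its 22 pseudogenes together at 608 CPM, of which Gm11847 took 331 and Gm5641 153. Gm5641 matched Hnrnpa3 at 100% identity over 1488 bases. With the pseudogenes added, Hnrnpa3 stood at 612 ± 55.4 CPM (GFP High), 609 ± 38.0 (GFP Low) and 647 ± 85.0 (RFP), with overlapping libraries. Gm6793, another near copy of Hnrnpa3 that is annotated as protein-coding, held a further 129 CPM that is not in this sum. For Hnrnpa1 the gene was at 185 CPM and its 10 pseudogenes at 238 CPM, of which 235 CPM was Gm10052. For Hnrnpk the values were 243 CPM and 62.9 CPM, for Snrpf 135 CPM and 52.6 CPM (Gm13092), and for Snrpg 2.66 CPM and 5.11 CPM (Gm8186, which the deposited tables call protein-coding). The level of Hnrnpa3 given above may therefore be read only as the level of the reads assigned to that locus.

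**Figure D2:**
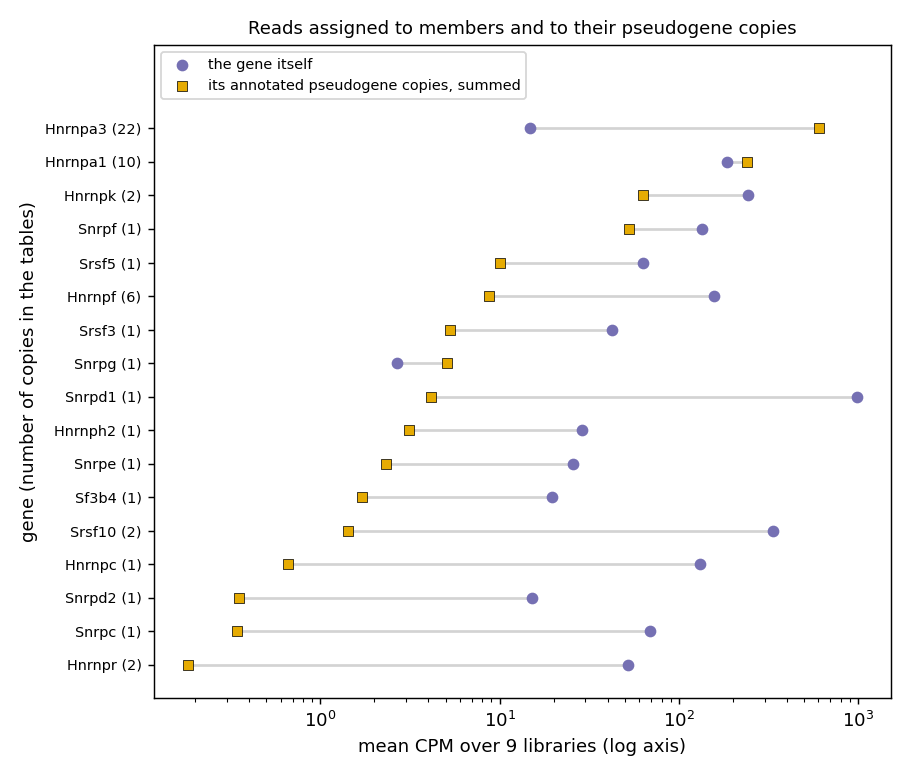
Mean CPM over the 9 libraries (log axis) of each gene that has annotated pseudogene copies (circles) and of those copies summed (squares), with the number of copies in brackets. The squares lie to the right of the circles for Hnrnpa3, Hnrnpa1 and Snrpg and to the left for the other 14 genes.

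Reads can also be shared with a gene on the opposite strand, and whether counting used the strand is not given in the sources used here. At least 10% of the exon bases lay under an exon of the opposite strand for 7 members. The share was 65.9% for Snrpf under Ccdc38, 43.0% for Srsf4 under Gm12992 and 29.1% for Hnrnpab under Phykpl. For Sf3a2 it was 16.1% under Plekhj1, a gene at 19.2 CPM on average. Hnrnpf, Srsf2 and Snrpa were the others. The values of these genes may include reads of the partner, or may lack reads that lay over exons of both genes.

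Eggs with the strongest green signal were first set against red eggs. None of the 50 members tested passed an adjusted p of 0.05 in GFP High against RFP (edgeR's quasi-likelihood test, Benjamini-Hochberg over 14829 genes), where 0.0135% of all genes tested did. At an unadjusted p under 0.05 there were 3 members of 50 against 4.09% of all genes, 2 higher (2.27% of all genes) and 1 lower (1.81%). With DESeq2 or limma-voom 0 members passed an adjusted p of 0.05. Each had 4 members at an unadjusted p under 0.05, beside 1311 of 26775 genes (DESeq2) and 775 of 14829 (limma-voom). The median log2 fold change of the members was 0.011 and that of all genes -0.0056, and 26 of 50 were above 0 against 49.3% of all genes. By family the median was 0.20 for the Snrp genes, 0.092 for SF3a and SF3b, -0.0052 for the Srsf genes and -0.055 for the hnRNPs. The 95% interval lay within a factor of 2 either way for 44 members, against 50.3% of all genes. Level was not matched between members and all genes here or in the comparisons below, and the median SE was 0.16 and 0.32.

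Snrpd3, a core Sm protein (ENSMUSG00000020180, chr10:75517551-75537381, GRCm38), had the smallest p. Its CPM were 105, 141 and 116 in GFP High 1, 2 and 3, and 101, 93.9 and 84.8 in RFP 1, 2 and 3. Each GFP High library was above each RFP library, with a log2 fold change of 0.39 (SE 0.14, adjusted p = 0.997), and 0.26 without GFP High 2. Sf3b5, a small SF3b subunit, was at 57.4, 59.1 and 54.0 CPM in GFP High and at 44.6, 48.1 and 43.7 in RFP, a log2 fold change of 0.34 (SE 0.13, adjusted p = 0.997). Hnrnpf (ENSMUSG00000042079, chr6:117900324-117925622) lay the other way, at 135, 141 and 145 CPM against 178, 165 and 157 in RFP, with no overlap and a log2 fold change of -0.24 (SE 0.10, adjusted p = 0.997). Srsf9 (0.25, SE 0.22) and Hnrnph1 (-0.18, SE 0.12) also had groups that did not overlap. In all, 3 members were higher and 2 lower in every GFP High library, against 4.6% and 7.49% of all genes tested.

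Snrpd1 was at 1077, 1189 and 931 CPM in GFP High and at 883, 1026 and 814 in RFP, overlapping ranges with a log2 fold change of 0.25 (SE 0.11, adjusted p = 0.997). Without GFP High 2 it was 0.16. Srsf11 was at 14.5, 14.1 and 19.3 CPM against 22.0, 23.9 and 16.9 (-0.38, SE 0.23, adjusted p = 0.997). After Snrpd1, the highest members by FPKM had log2 fold changes of -0.045 (SE 0.084) for Hnrnpul2, 0.066 (SE 0.20) for Snrpf, 0.17 (SE 0.13) for Sf3a3, -0.0014 (SE 0.092) for Sf3b2 and 0.047 (SE 0.088) for Hnrnpu, and Srsf10 was at 0.11 (SE 0.11). With its pseudogenes added Snrpf was at 0.24 (SE 0.13). Those at low levels were less precise, with 0.28 (SE 0.52) for Snrpb, 0.038 (SE 0.61) for Snrpg and 0.42 (SE 0.27) for Hnrnpll, which was at 0.27 without GFP High 1. The number of members at an unadjusted p under 0.05 varied with single libraries, and so did that of all genes. Without GFP High 3 it was 10 members, beside 1769 of 15724 genes tested. Without GFP High 2 it was 0 members, beside 1028 of 15891 genes. With all libraries 606 of 14829 genes were under that p. No member passed an adjusted p of 0.05 without either library.

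**Figure D3:**
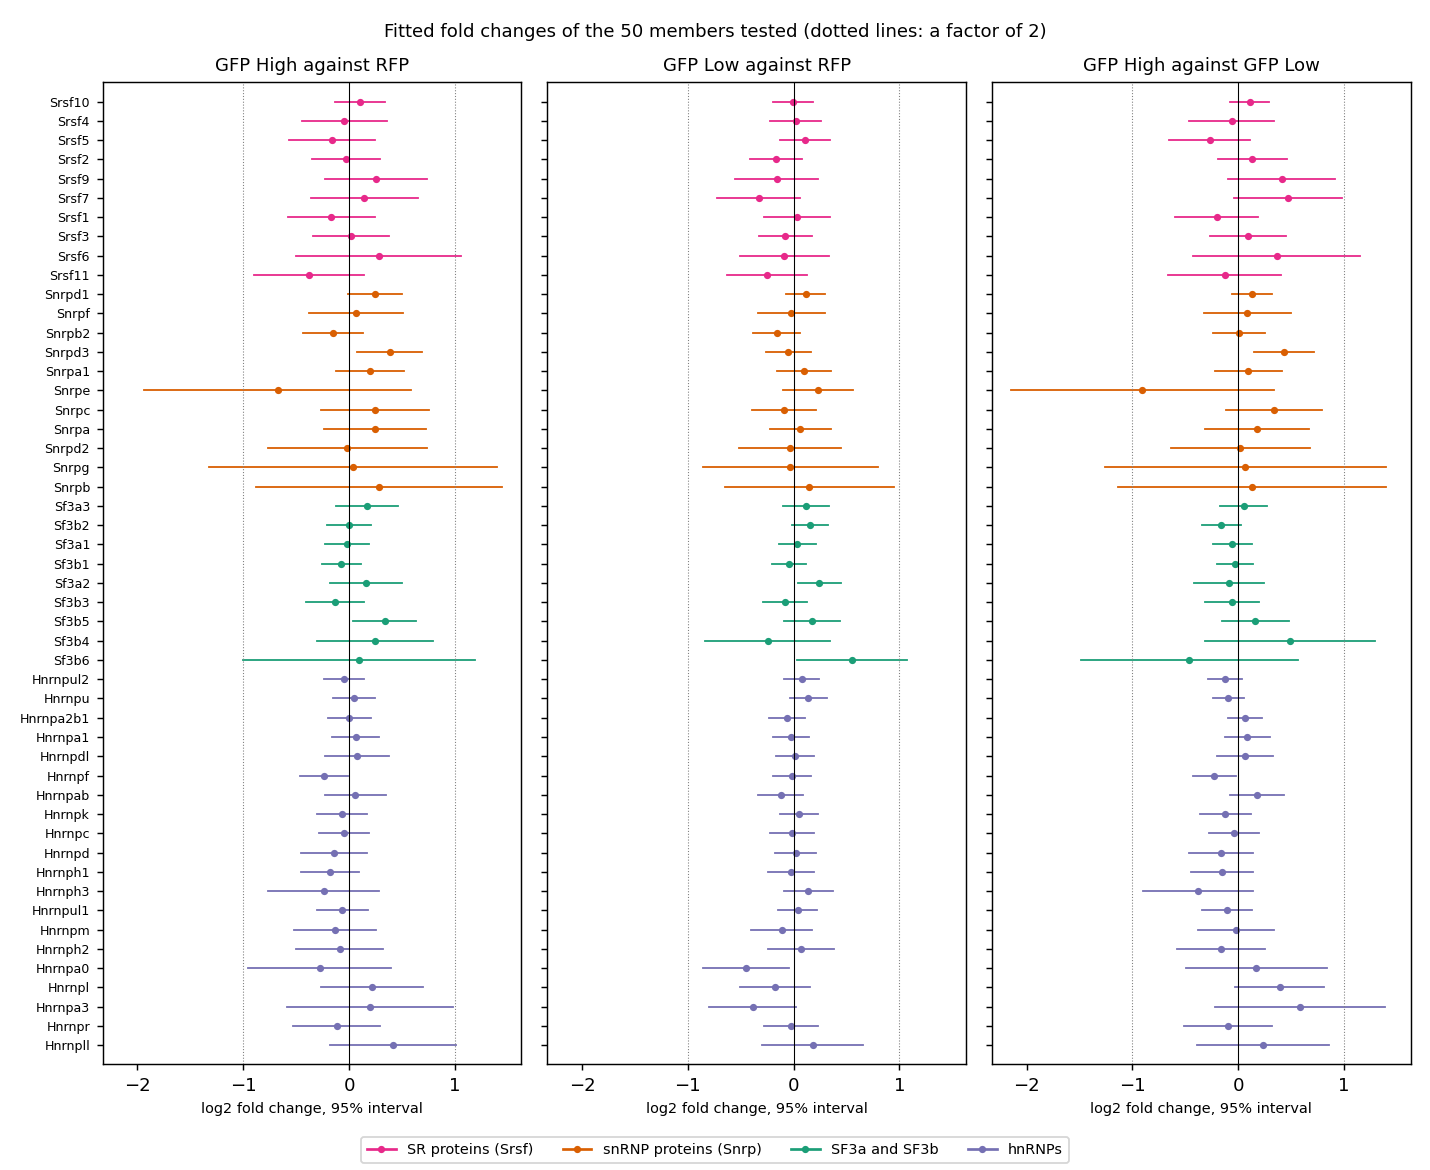
Fitted log2 fold changes of the 50 genes tested (horizontal axis, points) with their 95% intervals (lines), 1 panel per comparison, coloured by family and ordered by mean FPKM within each. Nearly all intervals cross 0 and lie between the dotted lines at a factor of 2, and the widest in the panels with GFP High belong to Snrpe, Snrpg, Snrpb and Sf3b6.

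GFP Low against RFP, which shares the RFP libraries with the comparison above, had the smallest errors of the 3, with a median SE over the members of 0.11 against 0.16 and 0.15. Again 0 of 50 members passed an adjusted p of 0.05 (edgeR, 15199 genes; 0.0197% of all genes did). There were 3 members at an unadjusted p under 0.05 against 2.62% of all genes, 2 higher (1.28% of all genes) and 1 lower (1.34%). DESeq2 and limma-voom also gave 0 members passing and 3 at an unadjusted p under 0.05. Of all genes, 589 of 29099 (DESeq2) and 473 of 15199 (limma-voom) were under that p. The median log2 fold change was -0.012 for the members and -0.0041 for all genes, with 23 of 50 above 0 against 48.9%. By family it was 0.11 for SF3a and SF3b, -0.012 for the hnRNPs, -0.022 for the Snrp genes and -0.082 for the Srsf genes. For 49 members the 95% interval lay within a factor of 2, against 65.7% of all genes, and the exception was Sf3b6.

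Sf3a2, an SF3a subunit (chr10:80798198-80804924, GRCm38), was at 103, 104 and 117 CPM in GFP Low 1, 2 and 3 and at 92.0, 86.6 and 95.3 in RFP 1, 2 and 3. The groups did not overlap, and the log2 fold change was 0.24 (SE 0.094, adjusted p = 1.00). Sf3b6 was at 7.14, 7.94 and 8.92 CPM against 6.92, 5.10 and 4.42, also without overlap, and its log2 fold change was 0.55 (SE 0.24, adjusted p = 1.00). Sf3b2 was at 343, 370.4 and 340.1 CPM against 313, 300.4 and 335 (0.16, SE 0.077, adjusted p = 1.00). With Hnrnph3 (0.14, SE 0.11), these 3 subunits of the U2 complexes made up the 4 members that were higher in every GFP Low library, against 3.5% of all genes. Of the other 6 Sf3 genes, Sf3b5 (0.17, SE 0.12), Sf3a3 and Sf3a1 (0.036, SE 0.079) were above 0, and Sf3b4 (-0.24, SE 0.27), Sf3b3 (-0.078, SE 0.096) and Sf3b1 (-0.045, SE 0.073) below. Srsf2 was the only member lower in every GFP Low library (-0.16, SE 0.11), against 4.22% of all genes.

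Hnrnpa0 was at 15.3, 12.1 and 14.9 CPM in GFP Low and at 15.2, 23.9 and 19.0 in RFP, so that 1 library of each group overlapped. Its log2 fold change was -0.45 (SE 0.19, adjusted p = 1.00), and -0.27 without RFP 2. Hnrnpa3 was at 12.1, 13.2 and 9.72 CPM against 17.4, 16.1 and 12.5 (-0.39, SE 0.19, adjusted p = 1.00), and with its pseudogenes added the value was -0.082 (SE 0.093). Of the other members at high levels, Snrpd1 was at 0.11 (SE 0.087), Hnrnpul2 at 0.078 (SE 0.076), Snrpf at -0.022 (SE 0.15), Sf3a3 at 0.11 (SE 0.10), Hnrnpu at 0.14 (SE 0.081) and Srsf10 at -0.0049 (SE 0.087).

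Within the green eggs, GFP High was set against GFP Low, with libraries that the comparisons above also used. Here too 0 of 50 members passed an adjusted p of 0.05 (edgeR, 14785 genes; 0% of all genes did). At an unadjusted p under 0.05 there were 2 members against 3.77% of all genes, 1 higher (1.85% of all genes) and 1 lower (1.92%). DESeq2 and limma-voom each gave 0 members passing an adjusted p of 0.05, with 4 and 3 members at an unadjusted p under 0.05. Of all genes, 1246 of 26570 (DESeq2) and 731 of 14785 (limma-voom) were under that p. The median log2 fold change was 0.036 for the members and -0.0048 for all genes, and 27 of 50 were above 0 against 49.4%. By family the median was 0.10 for the Srsf genes (6 of 10 above 0), 0.098 for the Snrp genes (10 of 11), -0.055 for SF3a and SF3b (3 of 9) and -0.065 for the hnRNPs (8 of 20). Snrpe was the Snrp gene below 0, and of the others Snrpb2 (0.0053, SE 0.11) and Snrpd2 (0.021, SE 0.29) were near 0 and Snrpg (0.070, SE 0.60) turned negative with limma-voom and with the replicate block. Snrpf was at 0.088 (SE 0.19), and at 0.29 (SE 0.094, adjusted p = 0.998) with its pseudogenes added. The 95% interval lay within a factor of 2 for 43 members, against 50.3% of all genes.

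Snrpd3 again had the smallest p, at 105, 141 and 116 CPM in GFP High against 94.7, 86.8 and 88.5 in GFP Low. The log2 fold change was 0.43 (SE 0.13, adjusted p = 0.998), and without GFP High 2 it was 0.30. Hnrnpf was at 135, 141 and 145 CPM against 173, 161 and 161, a log2 fold change of -0.22 (SE 0.091, adjusted p = 0.998). Neither gene's groups overlapped. Srsf7 was at 15.7, 16.7 and 19.0 CPM against 14.1, 11.4 and 11.8 (0.47, SE 0.23, adjusted p = 0.998), and Srsf9 (0.41, SE 0.23) and Sf3b2 (-0.16, SE 0.083) did not overlap either. That made 3 members higher and 2 lower in every GFP High library, against 4.49% and 7.22% of all genes. Hnrnpl was at 28.9, 44.8 and 39.9 CPM against 29.3, 29.0 and 28.7 (0.39, SE 0.19, adjusted p = 0.998), with 1 GFP High library inside the range of GFP Low. Without GFP High 2 the value of Hnrnpl was 0.25.

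**Figure D4:**
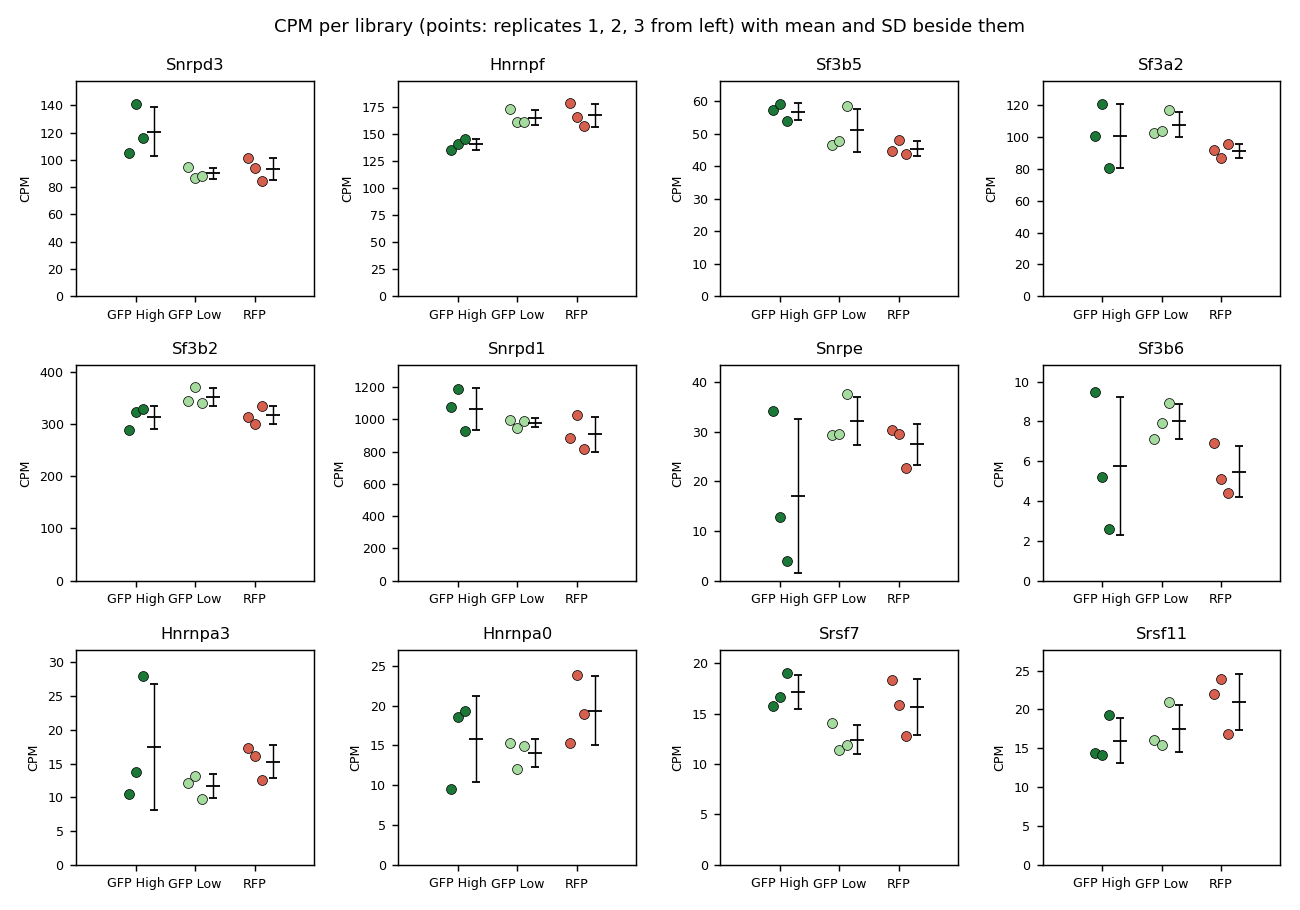
CPM of 12 members in each library (vertical axis from 0; points are replicates 1, 2 and 3 from left in each group), with the mean and SD (n = 3) drawn beside them. Snrpd3 and Hnrnpf in GFP High lie apart from the other 6 libraries, and Snrpe spans 4.03 to 34.3 CPM within GFP High.

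Replicates differed most for 3 genes of GFP High. Snrpe, a Sm ring protein (ENSMUSG00000090553, chr1:133603871-133610291), had 943, 314 and 90 reads in replicates 1, 2 and 3 of GFP High, or 34.3, 12.7 and 4.03 CPM. In GFP Low it was at 29.3, 29.5 and 37.6 CPM and in RFP at 30.3, 29.5 and 22.8. GFP High 1 was thus within the range of the other groups, GFP High 2 and 3 below all of it, and the coefficient of variation in GFP High was 91.5%. The log2 fold change of Snrpe was -0.67 (SE 0.57) against RFP and -0.90 (SE 0.56) against GFP Low, with adjusted p of 0.997 and 0.998, below a fold of 2. It was past that fold with limma-voom (-1.06 and -1.31) and with the replicate block (-1.13 and -1.34). By edgeR with no block and all libraries, no member had a fitted fold of 2 or more in any comparison, which 10.1%, 3.9% and 10.4% of all genes had in GFP High against RFP, GFP Low against RFP and GFP High against GFP Low. These shares were not matched for level, and the median SE of all genes was the larger in each comparison. Without GFP High 1 the log2 fold changes of Snrpe became -1.70 and -1.94, and without GFP High 3 -0.22 and -0.45.

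Sf3b6 varied in the same libraries, at 9.48, 5.23 and 2.60 CPM in GFP High (coefficient of variation 60.2%). Its log2 fold change in GFP High against GFP Low was -0.46, and -1.03 without GFP High 1. Hnrnpa3 went the other way, at 10.5, 13.7 and 28.0 CPM (53.6%), and with its pseudogenes added the GFP High libraries ran from 556 to 667 CPM. In GFP Low the widest was Sf3b4 at 16.7, 24.1 and 8.70 CPM (46.7%). For the 48 members at 5 CPM or more, the median coefficient of variation was 14.0% (GFP High), 8.07% (GFP Low) and 9.72% (RFP). Over all genes at that level it was 17.5%, 9.51% and 10.5%. GFP High, with the smallest pools, thus had the widest spread in the members as in all genes, and the part of pool size was not tested.

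The authors' deposited tables, which give their own p-values, likewise held 0 of 51 members under an adjusted p of 0.05 in each comparison. At an unadjusted p under 0.05 the authors' deposited tables had 4, 3 and 4 members. How many of all genes were under it there was not counted. DESeq2 run anew on the same counts had 1311 of 26775, 589 of 29099 and 1246 of 26570 genes under it. The smallest p in the authors' deposited tables was that of Snrpd3 in GFP High against RFP (0.00776, adjusted 0.445) and in GFP High against GFP Low (0.00122, adjusted 0.306), and that of Sf3a2 in GFP Low against RFP (0.0152).

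The other genes of the pathway were tested in the same fits, with 0 genes past an adjusted p of 0.05 by edgeR in any list and comparison. Of 67 further core components of the snRNPs and spliceosomal complexes, 6 were at an unadjusted p under 0.05 in GFP High against RFP (4 higher and 2 lower), 2 in GFP Low against RFP (both higher) and 7 in GFP High against GFP Low (5 higher and 2 lower), beside 4.09%, 2.62% and 3.77% of all genes tested. Cwc15, a component of the active spliceosome, was at 262 ± 46.6 CPM in GFP High and 196 ± 10.3 in RFP (log2 fold change 0.43, SE 0.13, adjusted p = 0.997). Dhx16, the helicase that remodels the spliceosome before its first step, was at 143 ± 10.3, 135 ± 14.1 and 113 ± 6.83 CPM in GFP High, GFP Low and RFP. Snrnp27, a protein of the tri-snRNP, had 465 ± 21.2 CPM (GFP High) and 378 ± 15.9 CPM (GFP Low; log2 fold change 0.31, SE 0.076, adjusted p = 0.998). Snrnp25 of the minor spliceosome was at 24.5 ± 2.13 CPM in GFP Low and 19.6 ± 2.16 in RFP. These 67 genes had a median log2 fold change of 0.037, 0.040 and -0.0054 in the 3 comparisons, in the order above.

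Among 50 splicing regulators outside the name rule, of which 48, 49 and 48 were tested, 1 was higher and 1 lower at an unadjusted p under 0.05 in each comparison, beside 4.09%, 2.62% and 3.77% of all genes in either direction. Elavl1, which binds AU-rich mRNA, was at 14.1 ± 0.207 CPM in GFP Low and 21.7 ± 3.36 in RFP (log2 fold change -0.62, SE 0.16, adjusted p = 1.00). Rbm17, which takes part in 3′ splice site choice, was at 1178 ± 88.2 CPM (GFP High), 1121 ± 37.1 (GFP Low) and 1013 ± 13.7 (RFP), with log2 fold changes against RFP of 0.23 (SE 0.078) and 0.15 (SE 0.065). Celf1 was at 113 ± 17.4, 139 ± 5.50 and 144 ± 5.58 CPM in the same order, and Rnps1, which joins the exon junction complex, at 117 ± 4.44 (GFP High) and 99.2 ± 2.60 (GFP Low). The median of these regulators was -0.051, -0.0057 and -0.050 in the same order of comparisons.

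The 7 kinases that phosphorylate SR proteins had 0 genes at an unadjusted p under 0.05 by edgeR in any comparison, with 6, 7 and 6 of them tested. Srpk2 was at 233 ± 18.4 CPM (GFP High), 257 ± 8.36 (GFP Low) and 262 ± 16.9 (RFP). Clk2 was at 93.4 ± 8.89 CPM (GFP High), 111 ± 6.09 (GFP Low) and 105 ± 1.81 (RFP). Clk3 was at 54.2 ± 3.47 CPM in GFP Low and 50.8 ± 6.95 in RFP, and Clk4 at 8.65 ± 5.17 in GFP High and 12.9 ± 0.507 in RFP. For the list the median log2 fold change was -0.070, -0.017 and -0.11 in GFP High against RFP, GFP Low against RFP and GFP High against GFP Low.

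Of 16 genes for snRNP assembly, 14 were tested in each comparison with RFP and 15 within the green eggs. At an unadjusted p under 0.05, 1 was higher in GFP High against RFP (2.27% of all genes were) and in GFP High against GFP Low (1.85%), and 1 lower in GFP Low against RFP (1.34%). Smn1, which loads the Sm ring onto snRNA, was at 196 ± 26.9 CPM (GFP High), 163 ± 10.8 (GFP Low) and 150.4 ± 16.8 (RFP). Its log2 fold change was 0.40 (SE 0.13, adjusted p = 0.997) against RFP and 0.28 (SE 0.11, adjusted p = 0.998) against GFP Low. Gemin6, a partner of Smn1 in that complex, was at 51.7 ± 23.7 CPM in GFP High and 37.6 ± 1.64 in RFP. Phax, the export adaptor of snRNA, was at 31.4 ± 5.77 CPM (GFP High), 23.6 ± 0.820 (GFP Low) and 28.8 ± 1.10 (RFP), with a log2 fold change in GFP Low against RFP of -0.28 (SE 0.13, adjusted p = 1.00). Sart3, a recycling factor of the U4/U6 snRNP, was at 1089 ± 49.2 CPM in GFP Low and 982 ± 125 in RFP. The median log2 fold change of the list was 0.14, -0.00017 and 0.20 in GFP High against RFP, GFP Low against RFP and GFP High against GFP Low, beside -0.0056, -0.0041 and -0.0048 for all genes.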

How the data were processed

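Counts, a normalised signal and FPKM per gene and library, and log2 fold changes, p-values and adjusted p-values per comparison were deposited by the authors in 3 tables, 1 for each pair of groups, per the file headers. The submitters' processing notes name fastp, HISAT2 2.0.5, featureCounts 1.5.0-p3, DESeq2 1.20.0 and mm10, with no role for each, and the strand setting and the treatment of reads with several hits are not given in the sources used here. Reads came from oligo-dT-selected, randomly primed paired-end libraries, per the labels' protocols. The tables were joined by gene identifier, with 178 genes set to 0 counts in libraries whose table lacked them.

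Each pair of groups was fitted with edgeR 4.0.16 in R 4.3.3 on all genes that passed filterByExpr (TMM, quasi-likelihood test, no covariate, Benjamini-Hochberg over the genes tested, threshold 0.05). CPM were scaled by TMM over the 9 libraries. FPKM, the deposited values, served only for levels between genes, and the normalised signal entered no result. DESeq2 1.42.0, limma-voom (limma 3.58.1), other scalings, filters and sample choices, and a sum over pseudogenes added after seeing the data were the alternatives. Standard errors and 95% intervals come from the quasi-likelihood F statistic.

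Sequences, gene types and overlaps come from GENCODE M21 (GRCm38), with which 47 of the 51 deposited positions and 46 of the 51 lengths matched exactly. Beside Snrpd1 and Sf3b2, the deposited length was shorter for Hnrnpul2 (5726 against 7108 bases), Hnrnpm (4701 against 7956) and Srsf7 (2279 against 3550). Members chosen for statistics were the 5 with the smallest p in each comparison and the 3 with the widest spread between replicates. The 2 highest and 2 lowest of each family by FPKM were chosen too. In other lists the 2 genes with the smallest p in each comparison were chosen, some of them given in CPM only. Not every fitted value of the chosen genes is printed. Srsf2, Srsf9, Hnrnph1 and Hnrnph3 were also named, after their values were seen, because their groups did not overlap. The members and lists were chosen with earlier results of these data known.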

Additional observations from a re-analysis of the deposited data

How the results depend on the processing

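The count of members past an adjusted p of 0.05 was 0 in each comparison under every alternative run, and the smallest adjusted p of any member was 0.0842, without a low-count filter in GFP High against GFP Low. The labels do not say whether libraries with the same replicate number are paired. Same-numbered deviations correlated at -0.113 to 0.116, which does not settle it, and with a replicate block 0 members passed. The median log2 fold change of the members in GFP High against GFP Low, 0.036, became 0.048 with DESeq2 size factors, 0.049 with protein-coding genes only, 0.011 without a filter, -0.0060 with limma-voom and -0.0046 with the replicate block. Leaving out 1 library at a time gave -0.0071 to 0.034 there, -0.050 to 0.022 in GFP Low against RFP and -0.013 to 0.029 in GFP High against RFP. The members' share of counts in GFP High, GFP Low and RFP was 0.896%, 0.903% and 0.879% of protein-coding counts, 0.850%, 0.859% and 0.839% without mitochondrially encoded genes, and 0.935%, 0.936% and 0.922% with pseudogenes added. At an unadjusted p under 0.05 GFP High against RFP had between 0 and 10 members. GFP Low against RFP had between 0 and 6, and GFP High against GFP Low between 1 and 7. The count of all genes moved too. At the ends of the first range it was 1028 of 15891 (without GFP High 2) and 1769 of 15724 (without GFP High 3). For the second it was 85 of 15857 (all 9 libraries in 1 fit) and 581 of 15964 (without RFP 3). For the third, 7 members came without GFP High 1, beside 1457 of 15618 genes. Only 1 member came without GFP Low 1, 2 or 3, beside 295, 278 and 350 genes. Apart from the pseudogene sums, signs were followed only for the members given full statistics, and some of these changed sign. In GFP High against RFP, Sf3b2 was 0.0094 with DESeq2 size factors, 0.0097 with the DESeq2 test, 0.013 with protein-coding genes and 0.0033 at a mean of at least 50 counts, Sf3b6 was -0.016 with limma-voom and -0.068 with the block, Snrpg was -0.0091 with limma-voom and -0.0042 with bias-adjusted deviances, and Hnrnpa3 was -0.065 with pseudogenes added. In GFP Low against RFP, Sf3b4 was 0.0072 with pseudogenes, Snrpg 0.030 with limma-voom and 0.046 with the block, and Srsf10 0.0042 with limma-voom. In GFP High against GFP Low, Snrpg was -0.037 with limma-voom and -0.013 with the block. Adding pseudogenes turned the sign of further members, without full statistics, in GFP High against RFP. Hnrnpk was -0.068 before and 0.044 after, Hnrnph2 -0.087 and 0.078, Snrpd2 -0.015 and 0.063, and Srsf3 0.019 and -0.028. Within the green eggs, Hnrnpk was -0.12 before and 0.018 after. The cause of these changes was not tested. Leaving out 1 library at a time turned the sign of these genes, given with their lowest and highest log2 fold change: in GFP High against RFP, Hnrnpa3 -0.33 to 0.45, Hnrnpr -0.25 to 0.055, Hnrnpu -0.023 to 0.12, Hnrnpul2 -0.091 to 0.011, Sf3b2 -0.044 to 0.047, Sf3b6 -0.48 to 0.44, Snrpb -0.024 to 0.50, Snrpf -0.12 to 0.24, Snrpg -0.38 to 0.47, Srsf4 -0.27 to 0.087. In GFP Low against RFP, Hnrnpll -0.048 to 0.33, Hnrnpr -0.11 to 0.040, Sf3b4 -0.63 to 0.064, Snrpb -0.27 to 0.34, Snrpf -0.17 to 0.097, Snrpg -0.21 to 0.40, Srsf10 -0.090 to 0.048, Srsf4 -0.060 to 0.075. In GFP High against GFP Low, Hnrnpr -0.23 to 0.076, Sf3a3 -0.041 to 0.14, Snrpb -0.18 to 0.55, Snrpf -0.095 to 0.27, Snrpg -0.35 to 0.29, Srsf11 -0.29 to 0.018, Srsf4 -0.29 to 0.068. Snrpb and Snrpg, the members tested with the lowest counts, had 44 to 126 per library. With all libraries, Srsf4 was at -0.043 (SE 0.18) in GFP High against RFP, 0.019 (SE 0.11) in GFP Low against RFP and -0.062 (SE 0.18) in GFP High against GFP Low. Hnrnpr was at -0.12 (SE 0.18), -0.023 (SE 0.12) and -0.094 (SE 0.19) in the same order.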
